A study of Homo sapiens with 4 samples.

Results

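The genes described here encode proteins of the red cell membrane skeleton and of the membrane proteins it is tied to. They were chosen as the rows of the deposited table of RNA synthesis that carry the names *SPTB*, *ANK1*, *EPB41*, *EPB42*, *GYPB*, *GYPC*, *RHAG* and *KEL*. Of these 8 genes, 5 are among the 10147 genes in the table: *EPB41*, *GYPB*, *GYPC*, *RHAG* and *KEL*. *SPTB* (erythroid beta-spectrin), *ANK1* (ankyrin) and *EPB42* (pallidin) were not analysed here. RNA synthesis was measured by transient transcriptome sequencing (TT-seq), in which cells are fed 4-thiouridine (4sU) for a few minutes and the labelled, newly made RNA is isolated and sequenced. The cells were K562, a line from a chronic myelogenous leukemia with erythroid features, in which both groups carried an N-terminal dTAG on the endogenous elongation factor gene *IWS1*. The dTAG lets the ligand dTAG7 mark the protein for degradation. Control cells received the solvent DMSO and dIWS1 cells received 500 nM dTAG7, both for 1 h, followed by 5 min with 500 µM 4sU. There were 2 control and 2 dIWS1 libraries, described as biological duplicates.

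The table gives no value per library. It gives each gene's mean over the library columns of read counts divided by a spike-in size factor, and whole reads per column were recovered from that mean. Low means were sums of whole multiples of 3 steps rather than 4. They fit 1 control column that enters the mean with the weight of 2 equal columns, and 2 dIWS1 columns that differ. As a result the control counts as a single sample (n = 1, against n = 2), and no spread between controls is known. The dIWS1 columns are called column 1 and column 2, which are not replicate numbers. Reads in genes were 29346451 in the control column, 20337905 in column 1 and 20567531 in column 2. The median log2 ratio of all genes to control was -0.47 in column 1 and -0.37 in column 2. Of 12 erythroid marker genes, 11 are listed, with from 129 reads (*HBG2*) to 19500 reads (*MYB*) in the control column. Of 9 markers of T cells, B cells, epithelium, hepatocytes and neutrophils, 2 are listed: *CD3D* with 135 reads and *KRT19* with 457 reads in the control column. The reads of the 2 marker groups thus overlapped, but reads are not corrected for gene length. Per kb of gene span, the erythroid markers ran from 80.2 normalized reads (*HBG2*) to 518 (*NFE2*) in the control column. *CD3D*, with 35.6, lay below all of them, and *KRT19*, with 96.5, lay within their range.

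As background, a red cell keeps its shape through a mesh of spectrin tetramers joined at short actin filaments. Protein 4.1R, the product of *EPB41*, strengthens the spectrin-actin junction and binds the cytoplasmic tail of glycophorin C, encoded by *GYPC*, together with p55, encoded by *MPP1*. A second attachment runs through ankyrin and pallidin to band 3 and to the Rh complex, which contains the Rh-associated glycoprotein encoded by *RHAG*. *KEL* encodes the Kell glycoprotein, an endopeptidase that is disulphide-linked to the XK protein, and *GYPB* encodes glycophorin B, the carrier of the S and s antigens. Loss of several of these proteins gives elliptocytosis, spherocytosis or a rare blood group phenotype.

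The 5 genes lie on different chromosomes (RefSeq annotation of GRCh38.p14). *EPB41* spans chr1:28887100-29120041 on the plus strand, or 233 kb. *GYPC* spans chr2:126656158-126696667 on the plus strand, or 40.5 kb. *GYPB* spans chr4:143995188-144019380 on the minus strand, or 24.2 kb. *RHAG* spans chr6:49605175-49636839 on the minus strand, or 31.7 kb. *KEL* spans chr7:142941114-142962363 on the minus strand, or 21.2 kb.

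*GYPB* has a near-identical neighbour in *GYPE*, which matters for counting because the authors kept unique alignments alone. Of all 36-base windows in the *GYPB* gene span, 38.1% also occur in *GYPE*. The likeness reaches upstream of both genes. In the 100 bases just before *GYPB* (chr4:144019381-144019480, minus strand) and the matching bases before *GYPE* (chr4:143905601-143905700, minus strand), 99 bases are identical and 1 differs. They are shown 5′ to 3′ from RefSeq with the differing base in capitals.
GYPB: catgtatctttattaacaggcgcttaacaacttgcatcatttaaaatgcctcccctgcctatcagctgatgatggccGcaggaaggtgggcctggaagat
GYPE: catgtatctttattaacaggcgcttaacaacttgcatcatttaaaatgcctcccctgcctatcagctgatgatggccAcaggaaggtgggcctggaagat

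Promoters of 3 genes, *GYPC*, *RHAG* and *KEL*, are shown next, to let their letters be compared. Whether the letters go with the change in RNA synthesis in dIWS1 cells was not tested. Each window lies in the 250 bases before the annotated start, 5′ to 3′ on the gene's strand (RefSeq, GRCh38.p14), and the *GYPC* window was shortened to the 225 bases outside annotated exons. Capitals mark the GATA motif, searched as AGATAA or TGATAA, and the CACC-box motif, searched as CCNCNCCC, both on either strand with overlapping matches counted. These letters were chosen because GATA1 and KLF1 are the erythroid factors that recognise such motifs. The *GYPC* window is chr2:126655908-126656132, the *RHAG* window is chr6:49636840-49637089 and the *KEL* window is chr7:142962364-142962613.
GYPC: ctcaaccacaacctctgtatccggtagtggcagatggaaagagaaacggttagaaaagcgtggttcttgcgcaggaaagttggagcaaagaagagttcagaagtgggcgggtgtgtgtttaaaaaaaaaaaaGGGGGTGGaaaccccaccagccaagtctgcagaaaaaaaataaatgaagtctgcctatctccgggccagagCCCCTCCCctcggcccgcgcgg
RHAG: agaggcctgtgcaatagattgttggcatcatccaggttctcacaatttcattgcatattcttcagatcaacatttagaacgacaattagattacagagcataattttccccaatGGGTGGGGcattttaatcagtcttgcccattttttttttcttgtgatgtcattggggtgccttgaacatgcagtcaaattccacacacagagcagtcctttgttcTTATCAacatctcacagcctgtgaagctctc
KEL: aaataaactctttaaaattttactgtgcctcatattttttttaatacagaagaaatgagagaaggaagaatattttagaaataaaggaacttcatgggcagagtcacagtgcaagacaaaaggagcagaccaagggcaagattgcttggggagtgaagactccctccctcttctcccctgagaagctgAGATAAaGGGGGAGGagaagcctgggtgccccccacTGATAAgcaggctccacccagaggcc

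The *KEL* window held 2 GATA matches and 1 CACC match. The *RHAG* window held 1 of each, and the *GYPC* window held 2 CACC matches and no GATA match. Over 35116 promoter windows of 250 bases, 14.6% held the GATA letters and 53.4% the CACC letters. The first of 2 *EPB41* entries (chr1:28886850-28887099) held 6 CACC matches, and the first of 2 *GYPB* entries (chr4:144019381-144019630) held neither motif. The second *GYPB* entry (chr4:144019346-144019595), which overlaps annotated exon bases, held 1 GATA match. A match describes letters and was not tested as a binding site.

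How strongly each gene was transcribed was compared per length, as reads divided by the size factor per kb of gene span (normalized reads per kb). *RHAG* had the highest level, with 189 normalized reads per kb in control and 145 and 151 in the dIWS1 columns. *EPB41* followed in control with 149, against 94 and 107 in dIWS1. *KEL* had 143 in control and 100 and 103 in dIWS1. In the dIWS1 columns the ranges of *EPB41* and *KEL* overlapped, so their order was not resolved there. *GYPC* had 127 in control and 74 and 76.5 in dIWS1. *GYPB* was lowest, with 40.2 in control and 27.5 and 29.7 in dIWS1. The median gene had 42 in control, and *RHAG* stood at percentile 95, *EPB41* at 92.1, *KEL* at 91.3, *GYPC* at 89 and *GYPB* at 48.3 of all genes with a length. Thus 4 of the 5 genes were among the more strongly transcribed genes of these cells, and *GYPB* was close to the median gene. Reads shared with a near-identical gene were discarded by unique alignment, and how far this lowers the level of *GYPB* was not tested.

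**Figure D1:**
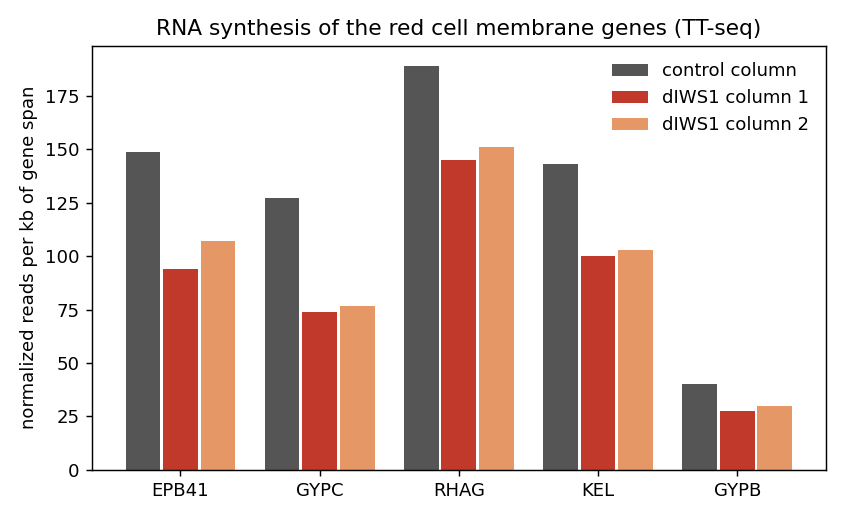
RNA synthesis of the 5 genes as normalized reads per kb of gene span, with 1 bar for the control column and 1 for each dIWS1 column. In every gene both dIWS1 bars are below the control bar, from 189 to 145 and 151 in *RHAG* and from 127 to 74 and 76.5 in *GYPC*.

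RNA synthesis of all 5 genes fell after 1 h of IWS1 depletion. *GYPC* fell most, to 59.2% of control, and *RHAG* least, to 78.3%. A difference was called at an adjusted p under 0.05 in limma with voom weights, Benjamini-Hochberg adjusted over the 9908 genes whose mean reached 10 normalized reads. All 5 genes were called lower, and so were 66.3% of all genes tested. The median log2 change was -0.49 over the 5 genes and -0.42 over all genes tested. The spread in this fit comes from differences between the 2 dIWS1 columns pooled over genes, with weights by level. Because the fit's prior was infinite, a gene's own difference between these columns does not enter its SE or p-value. The SE and p-value of a gene therefore do not measure how well its own columns agree. No test carries any spread between controls.

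*EPB41*, the gene of protein 4.1R, had 34753 normalized reads in control, 21896 in column 1 and 24879 in column 2. Both dIWS1 columns were well below control and differed between themselves, by -0.18 on the log2 scale (column 1 minus column 2). Over genes with a mean over 100 that difference had a median of -0.12 and an SD of 0.13. The log2 change was -0.57 ± 0.14 (SE), with an adjusted p of 0.000138 in limma, and the level was 67.1% of control.

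*GYPC*, the gene of glycophorin C, had 5145 normalized reads in control, 2996 in column 1 and 3099 in column 2. The 2 dIWS1 columns lay close together, with log2 ratios of -0.78 and -0.73. The 95% counting intervals were -0.84 to -0.71 and -0.80 to -0.67. The log2 change was -0.76 ± 0.15 (SE), with an adjusted p of 4.3e-06 in limma, and 10.6% of all genes tested had a change as low or lower.

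*RHAG*, whose product carries the Rh proteins to the membrane, had 5975 normalized reads in control, 4581 in column 1 and 4782 in column 2. Both columns were below control, with log2 ratios of -0.38 and -0.32. The log2 change was -0.35 ± 0.15 (SE), with an adjusted p of 0.0302 in limma. This was the call nearest the threshold, and it was lost when limma-trend replaced voom (adjusted p = 0.0956 with a pseudocount of 0.5).

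*KEL*, the gene of the Kell glycoprotein, had 3034 normalized reads in control, 2134 in column 1 and 2192 in column 2. The dIWS1 columns agreed within their counting intervals, with log2 ratios of -0.51 and -0.47. The log2 change was -0.49 ± 0.15 (SE), with an adjusted p of 0.0025 in limma, and the level was 71.3% of control.

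*GYPB*, the gene of glycophorin B, was covered least, with 983 reads in control, 661 in column 1 and 660 in column 2. These gave 974, 666 and 718 normalized reads. The log2 ratios were -0.55 and -0.44, with wider counting intervals of -0.69 to -0.41 and -0.58 to -0.30. The log2 change was -0.49 ± 0.13 (SE), with an adjusted p of 0.000578 in limma.

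**Figure D2:**
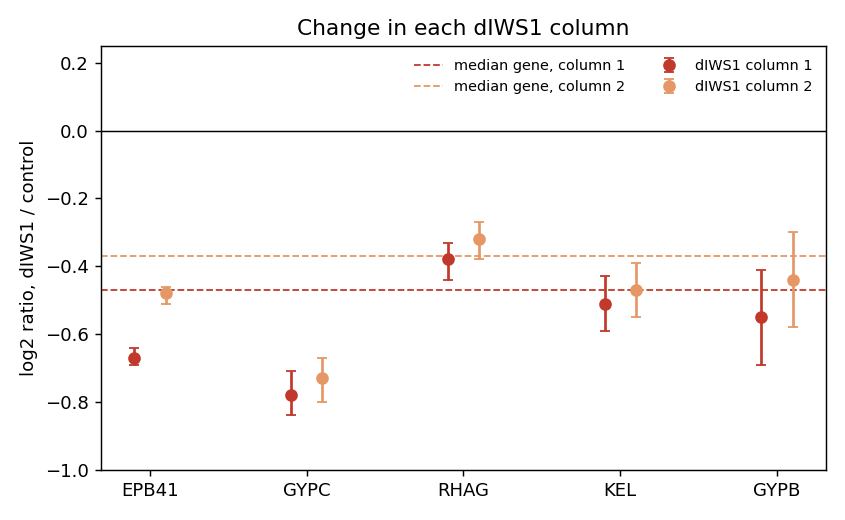
Log2 ratio of each dIWS1 column to control for the 5 genes. Points are columns, bars are 95% counting intervals, and dashed lines are the median gene of each column at -0.47 and -0.37. *GYPC* lies below both lines at -0.78 and -0.73, and *RHAG* lies just above them at -0.38 and -0.32.

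Since most genes fell, each gene was also read against the median gene, with each column scaled so that the median gene was at 0. On that scale *GYPC* remained lower, with a relative log2 change of -0.33 ± 0.07 (SE) and an adjusted p of 5.23e-05 in limma. *EPB41* was lower by a small amount, with -0.15 ± 0.06 (SE) and an adjusted p of 0.0281. Relative to the median gene, 2 of the 5 genes were called lower, where 16.0% of all genes tested were called lower and 16.4% higher. The other 3 genes were not called. Their relative log2 changes were -0.07 for *GYPB* (adjusted p = 0.571), -0.07 for *KEL* (adjusted p = 0.528) and 0.07 for *RHAG* (adjusted p = 0.484). The call of *EPB41* on this scale was lost without the filter on low values (adjusted p = 0.0618) and with limma-trend (adjusted p = 0.0869), whereas *GYPC* kept its call in both (0.00394 and 0.000127).

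**Figure D3:**
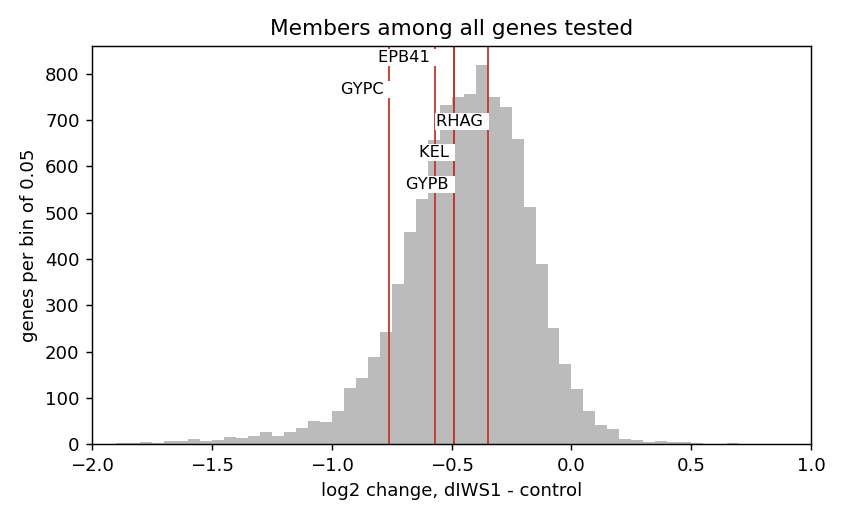
Log2 change (dIWS1 minus control) of all 9908 genes tested, in bins, with the 5 genes as red lines. *GYPC* at -0.76 lies toward the lower side, *EPB41* at -0.57 is nearer the centre, *KEL* and *GYPB* share -0.49, and *RHAG* at -0.35 lies above the median of -0.42. The few genes beyond the axis are not drawn.

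Proteins that act together in the membrane were compared gene against gene. In each dIWS1 column the log2 ratio of one gene was subtracted from that of its partner, so that the scaling cancels, with 95% intervals that cover counting error only. The 7 pairs below were chosen with the values known. At the 4.1R junction, *GYPC* lay below *EPB41* by -0.11 in column 1 (-0.18 to -0.04) and -0.25 in column 2 (-0.32 to -0.18). *GYPC* lay further below *MPP1*, the gene of p55, with -0.34 (-0.44 to -0.24) and -0.51 (-0.60 to -0.41). *MPP1* itself had 3793 normalized reads in control, 2796 in column 1 and 3249 in column 2, with a log2 change of -0.33 and an adjusted p of 0.0422 in limma. *GYPC* thus lay below both other genes of this junction by more than counting error in each column. The 2 columns share 1 control column, so their differences are not independent, and spread between libraries does not enter the intervals. *GYPC* also lay below *RHAG*, by -0.40 (-0.48 to -0.31) and -0.41 (-0.50 to -0.32).

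Within the Rh complex, *RHAG* lay above the genes of the Rh proteins themselves. Its difference was 0.24 (0.12 to 0.36) and 0.31 (0.19 to 0.43) from *RHD*, and 0.35 (0.23 to 0.47) and 0.28 (0.16 to 0.39) from *RHCE*. *RHD* had 1866 normalized reads in control, 1211 in column 1 and 1203 in column 2. *RHCE* had 1886, 1134 and 1247. Both were called lower, with log2 changes of -0.63 (adjusted p = 5e-05) and -0.66 (adjusted p = 1.83e-05) in limma. They are near-identical neighbours on chromosome 1, so reads that fit both equally were discarded by unique alignment. How far this affects their values was not tested.

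In the Kell complex, *KEL* lay below *XK*, by -0.20 (-0.31 to -0.08) and -0.27 (-0.38 to -0.16). *XK*, the gene of the transmembrane partner of Kell, had 3007 normalized reads in control, 2422 in column 1 and 2623 in column 2. Its log2 change of -0.25 was not called (adjusted p = 0.114 in limma).

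In the glycophorin cluster, no difference between *GYPB* and its neighbour *GYPE* was detectable at this depth. *GYPB* minus *GYPE* was 0.02 (-0.14 to 0.19) and 0.09 (-0.08 to 0.26). *GYPE* had 2639 normalized reads in control, 1775 in column 1 and 1827 in column 2, and was called lower with a log2 change of -0.55 (adjusted p = 0.000573 in limma). The intervals still allow differences of up to 0.26. Reads that fit both genes equally were discarded by unique alignment, and how far this affects the comparison was not tested.

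The other genes of the red cell membrane were read from a list of 41, of which 30 were tested. In limma 20 were called lower and 10 were not called, a share close to the 66.3% called lower among all genes tested, with a median log2 change of -0.38 against -0.42 over all genes tested. Of the skeleton and its anchors, 7 of 9 tested genes were lower, with a median of -0.43. This count and those of the other groups below are to be read against the same 66.3%. *TMOD1*, whose product caps the slow-growing end of the actin filament, had 13084 in control and 8617 and 9354 in dIWS1, a log2 change of -0.54 (adjusted p = 0.00061). *DMTN*, the gene of the actin-bundling protein dematin, had the lowest change of this group at -0.61 (adjusted p = 2.25e-05). *ADD3*, which encodes gamma-adducin, had the highest at -0.19 and was not called (adjusted p = 0.243).

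Of the glycophorins and blood group carriers 6 of 11 tested genes were lower, with a median of -0.40. *CD55*, the complement regulator that carries the Cromer antigens, had 4832 normalized reads in control and 5184 and 6007 in dIWS1. It lay above control in both columns, but its log2 change of 0.21 was not called (adjusted p = 0.2 in limma). Of the raft, channel and transporter genes 7 of 10 tested were lower, with a median of -0.35. *AQP1*, the water channel gene, had the lowest change of the list, to 50.1% of control (adjusted p = 7.32e-06), from few reads: 126 in control and 62 and 57 in dIWS1. *STOM*, the gene of stomatin, had 1456 normalized reads in control and 1458 and 1727 in dIWS1, a log2 change of 0.13 that was not called (adjusted p = 0.409).

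Relative to the median gene, 4 of the 30 genes of the list were called lower and 6 higher, near the 16.0% and 16.4% of all genes tested. The lower ones were *RHD*, *RHCE*, *FLOT2* and *AQP1*. The higher ones were *CD55*, *STOM*, *ADD3*, *CD44*, *ERMAP* and *ATP2B1*. Among the higher ones, *CD55* and *STOM* had the largest relative log2 changes, 0.63 and 0.55. Among the lower ones, *AQP1* had the largest, -0.58, from few reads.

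**Figure D4:**
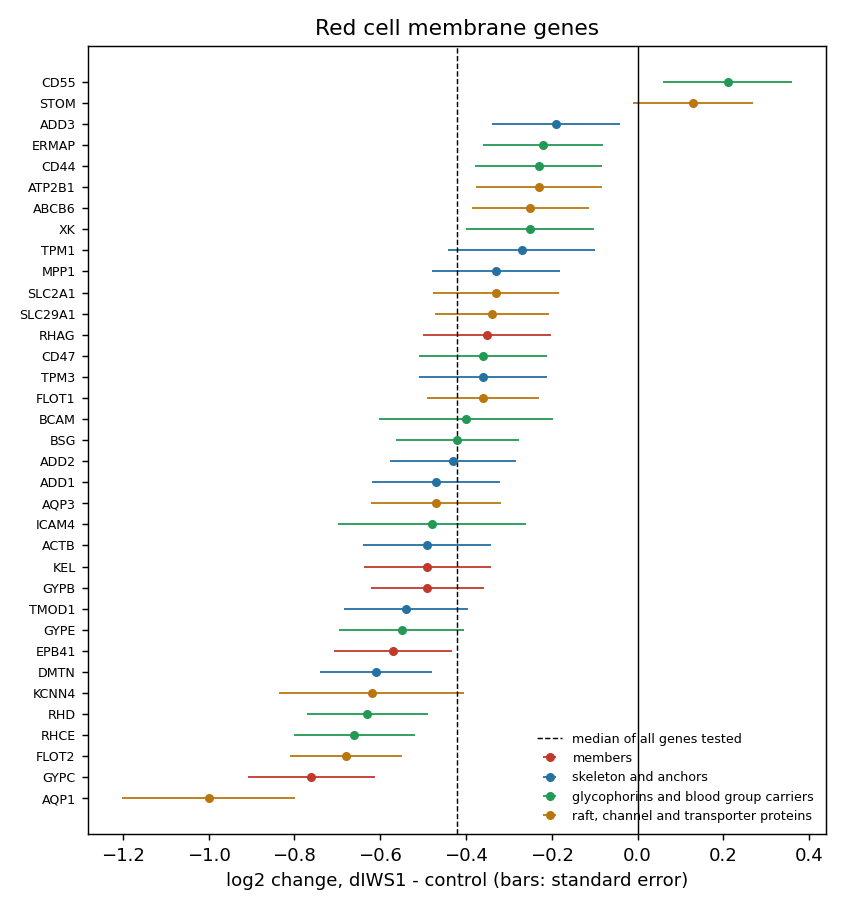
Log2 change (dIWS1 minus control) of the 5 genes and 30 other red cell membrane genes, coloured by role. Points are limma estimates, bars are standard errors, and the dashed line is the median of all genes tested at -0.42. *AQP1*, at 50.1% of control, and *GYPC*, at -0.76, are lowest, and *STOM* at 0.13 and *CD55* at 0.21 are above 0.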

How the data were processed

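TT-seq was performed on dTAG-*IWS1* K562 cells, with 2 control and 2 dIWS1 libraries. The authors aligned reads to GRCh38 with spike-in sequences (STAR 2.6.0, unique alignments), counted read pairs per RefSeq gene by strand, removed overlapping genes, kept expressed genes and ran DESeq2 with spike-in size factors. The deposited table holds 1 signal per gene, the mean of the libraries' spike-in-scaled counts. It also holds the authors' comparison (a log2 fold change, its error, a test statistic and p-values), whose values were not used.

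Whole reads were recovered from the mean alone as sums of multiples of the steps 0.495 (control), 0.252 and 0.272. Of 10147 genes, 10127 had 1 solution (99.91% of those above 0), 5 had several and 4 none. Means up to 60 were searched in full. Higher means were searched within a log2 change of 4 and a log2 difference between dIWS1 columns of 1, and within 3 and 0.6 for means over 1000. The last limits were narrowed after a first run, which left the reads of the described genes unchanged. When 600 means were altered slightly at random, 1 could still be split. The highest means were left out of this check. It therefore does not cover *EPB41*, *EPB41L2*, *MYB* and *TFRC*. Which column is control is named nowhere in the table. It was told by reading only the sign of the deposited log2 fold change, stated by the study as dIWS1 over control, which matched in 8889 of 8891 genes with a mean over 100. If that sign were the other way round, all directions given here would turn.

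The recovered columns were fitted with limma 3.58.1 voom in R 4.3.3, scaled by spike-in size factors, with 1 control and 2 dIWS1 columns, 1 residual degree of freedom and an infinite prior. A count model was left out of the plan because the table holds no count columns, and none was fitted to the recovered whole reads. A second fit scaled each column to its median gene. The fit was tested on simulated data. Intervals cover counting error only, at 95%. Recovery and sequence matching used Python 3.11.15 with numpy 2.4.6, pandas 2.3.3 and numba 0.67.0, and figures used matplotlib 3.10.9. Gene spans came from RefSeq and were found for 9920 genes. The genes, lists, pairs, motifs and the *GYPB* to *GYPE* comparison were chosen with earlier results of these data known. Named genes were the 8 chosen genes, *IWS1*, and members of the lists of red cell membrane genes, paralogs and markers. *IWS1* synthesis had a log2 change of -0.55 (adjusted p = 0.000733), which does not check depletion, since dTAG7 acts on the protein. A few items of the lists are not reported here, and the lists' counts leave them out. Alternatives were other scalings, filters, models, thresholds, lengths and leaving out a dIWS1 column.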

Additional observations from a re-analysis of the deposited data

How the results depend on the processing

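Scaling moved the counts most. With the median gene at 0, the genes called lower went from 5 to 2 of the 5 described, from 20 to 4 of the wider list and from 6565 to 1588 of all genes. With library totals of reads in genes they were 2, 4 and 1482. Both scalings raise every gene by about the size of the median change, so *RHAG*, which lay above the median gene, moved past 0, to 0.07 (adjusted p = 0.484) and 0.09 (adjusted p = 0.276), and was not called. Calls relative to the median gene went from 2 lower to 1 with limma-trend (pseudocount 0.5) and to 1 without the filter, in both cases through *EPB41*, and to 3 with the control entered 2 times. Of 35 alternatives with a test for the log2 changes of the 5 genes, 27 left direction and call in place, 6 lost the call and the 2 of *RHAG* changed sign without a call. Entering the control 2 times counts 1 column as 2 samples with no spread between them. The call it added was *GYPB*, whose relative log2 change stayed at -0.07. Calls from this setting, also those among the 27, add no independent support. Leaving out 1 dIWS1 column gives a value with no test. Such values ran from -0.67 to -0.48 for *EPB41*, -0.78 to -0.73 for *GYPC*, -0.38 to -0.32 for *RHAG*, -0.51 to -0.47 for *KEL* and -0.55 to -0.44 for *GYPB*. Per kb of summed exons the control level was 1738 for *EPB41*, 511 for *GYPB*, 1426 for *GYPC*, 2273 for *RHAG* and 829 for *KEL*, which puts *GYPC* above *KEL*. The alternatives for all genes, and those for the wider list other than the median gene at 0, were added after seeing the data. No paired analysis was possible because the recovered columns carry no replicate number. Depth limited the list genes with the fewest reads, such as *ICAM4* (87 in control) and *KCNN4* (95), whose changes had an SE of 0.22.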

Other observations

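Relatives of the chosen genes that many tissues express were measured as well. Of 18 such paralogs 10 were tested, and 9 were called lower in limma, where 66.3% of all genes tested were. Their median log2 change was -0.51, against -0.42 over all genes tested. Relative to the median gene 1 was called lower, where 16.0% of all genes tested were. *EPB41L1* had the lowest, at -0.65 (adjusted p = 3.85e-05), and *SPTAN1*, a spectrin gene of non-erythroid cells, the highest, at -0.27 (adjusted p = 0.0749). *EPB41L2*, the most deeply covered, had 41502 normalized reads in control, 32659 in column 1 and 33747 in column 2. *EPB41* minus *EPB41L2* was -0.32 in column 1 (-0.35 to -0.29) and -0.18 in column 2 (-0.22 to -0.15), with intervals that cover counting error only.

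Of 11 erythroid marker genes tested, 7 were called lower in limma, near the 66.3% of all genes tested, with a median log2 change of -0.47. Relative to the median gene 4 were called lower and 4 higher, where 16.0% of all genes tested were called lower and 16.4% higher. *GATA1*, the erythroid regulator, changed by -0.34 (adjusted p = 0.0225) and *KLF1*, which encodes a factor that binds CACC boxes, by -0.78 (adjusted p = 1.62e-06). *HBZ*, the embryonic zeta-globin gene, had the lowest change, at -0.91 (adjusted p = 3.54e-06). *HBG1*, one of a pair of near-identical gamma-globin genes, had the highest at 0.14 (adjusted p = 0.45). Both listed markers of other cells were called lower, *CD3D* with -0.70 (adjusted p = 0.000763) and *KRT19* with -0.35 (adjusted p = 0.0125).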
